A study of Homo sapiens with 9 samples.

Results

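The channel, pump and calcium-sensor genes tied to the zona glomerulosa, the aldosterone-making outer layer of the adrenal cortex, were measured in H295R, a line grown from a human carcinoma of that cortex. The set named 9 genes: the potassium channels KCNK1, KCNK2, KCNK3, KCNK9 and KCNJ5, the pump subunit ATP1B1, the calcium pump ATP2B3, the chloride channel CLCN2 and the calcium sensor VSNL1. They were matched by symbol in the probe annotation, which gave 24 probe sets for 8 of the 9 genes among 19775 genes measured; CLCN2 was not analysed here. The brightest probe set of each gene over all 9 arrays gave its main value. In all, 3 groups of 3 arrays each were compared at 3 h: cells given torcetrapib at 100 nM, cells given angiotensin II at 100 nM, and cells given the vehicle DMSO. Torcetrapib inhibits the cholesteryl ester transfer protein, and angiotensin II is the peptide hormone that drives aldosterone secretion. The study asked whether a drug of the torcetrapib class turns on the renin-angiotensin-aldosterone pathway in adrenal cells. All groups were the same cell line, and nothing in the labels says whether arrays within a group stem from different cultures. The p-values therefore measure the spread among these arrays alone, and that spread may be technical.

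Glomerulosa cells rest at a negative membrane potential set by potassium leak channels, and the Na,K-ATPase keeps the potassium gradient that these channels use. Angiotensin II and potassium depolarise the cell, voltage-gated calcium channels open, and the calcium that enters drives aldosterone synthesis. Mutations in KCNJ5, ATP2B3 and CLCN2 occur in aldosterone-producing adenomas or familial hyperaldosteronism.

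The values are log2 expression after robust multi-array averaging (RMA), and each change below is a difference of mean log2 values with its standard error (SE), from one limma fit over all genes. A gene was called changed at a Benjamini-Hochberg adjusted p below 0.05. Adrenocortical marker genes averaged above the median gene, 6.73, on every array: 6 of 8 listed markers were measured, and their mean log2 level was 9.24 to 9.34 with torcetrapib, 9.30 to 9.42 with angiotensin II and 9.17 to 9.32 with DMSO. Of these, NR5A1 (mean of 9 arrays 7.12) and MC2R (7.14) lay only slightly above the median gene. All 6 listed glomerulosa markers were measured, at a mean of 9.39 to 9.42, 9.33 to 9.37 and 9.42 to 9.53 in the same order of groups, and 1 of them, HSD3B1, lay below 4.87, the lower quartile of all genes. The aldosterone synthase gene CYP11B2, whose probes may also read its near-identical neighbour CYP11B1, averaged 5.84 ± 0.08 with torcetrapib, 5.95 ± 0.33 with angiotensin II and 5.70 ± 0.25 with DMSO (SD, n = 3 each). Each of these means lay below the median gene. With angiotensin II 4 of the 6 glomerulosa markers (AGTR1, DAB2, CCN3 and LEF1) were called lower than DMSO (log2 changes −0.32 to −0.16), where 2.76% of all genes were, and with torcetrapib 1 was (DAB2), where 0.566% of all genes were. Of the 6 adrenocortical markers, 2 were called higher with angiotensin II than with DMSO (3.36% of all genes) and none was called with torcetrapib. Between torcetrapib and angiotensin II, 2 adrenocortical markers and 1 fibroblast, endothelial or immune marker were lower with torcetrapib (6.68% of all genes) and 1 glomerulosa marker was higher (4.61%). Their part in the results on the 8 genes was not tested. The 5 adrenal medulla markers averaged 6.14 to 6.29, 6.18 to 6.30 and 6.21 to 6.29. The 7 measured fibroblast, endothelial and immune markers averaged 5.11 to 5.13, 5.18 to 5.37 and 5.11 to 5.20. Over the 9 arrays, 1 of the 5 medulla markers, TH, and 2 of the 7 others, CDH5 and PTPRC, averaged below 4.87. COL1A2 did so in the torcetrapib group only (4.85). CHGB (mean of 9 arrays 8.53), COL1A1 (7.72) and CHGA (6.86) lay above the median gene, 6.73. In RNA from a whole well, a change in every cell and a change in some cells cannot be told apart.

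Angiotensin II raised 2 of the 8 genes, KCNK1 and ATP1B1, by 1.48-fold and 1.25-fold over DMSO, and lowered none at the adjusted threshold. Of all genes, 6.12% were called in that comparison, 3.36% higher and 2.76% lower. Torcetrapib left KCNK1 and ATP1B1 short of the threshold against DMSO and lowered 1 of the 8 genes, KCNJ5, by 1.21-fold, where 1.16% of all genes were called, 0.592% higher and 0.566% lower. Set directly against angiotensin II, torcetrapib-treated cells had lower KCNK1 and ATP1B1 and higher KCNK2, which is 3 of 8 genes against 11.3% of all genes (4.61% higher, 6.68% lower). The arrays did not overlap for 4 of the 8 genes with angiotensin II against DMSO, for 3 with torcetrapib against DMSO and for 6 with torcetrapib against angiotensin II, where 17.6%, 16.5% and 28.6% of all genes had no overlap. At an unadjusted p below 0.05, angiotensin II gave 2 higher and 3 lower genes of the 8, against 1572 higher and 1687 lower of all 19775 genes, and torcetrapib 1 higher and 1 lower, against 887 and 1752 of all genes. The median log2 change of the 8 was 0.07 with angiotensin II, against 0.01 over all genes, and 0.01 with torcetrapib, against −0.03 over all genes.

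**Figure D1:**
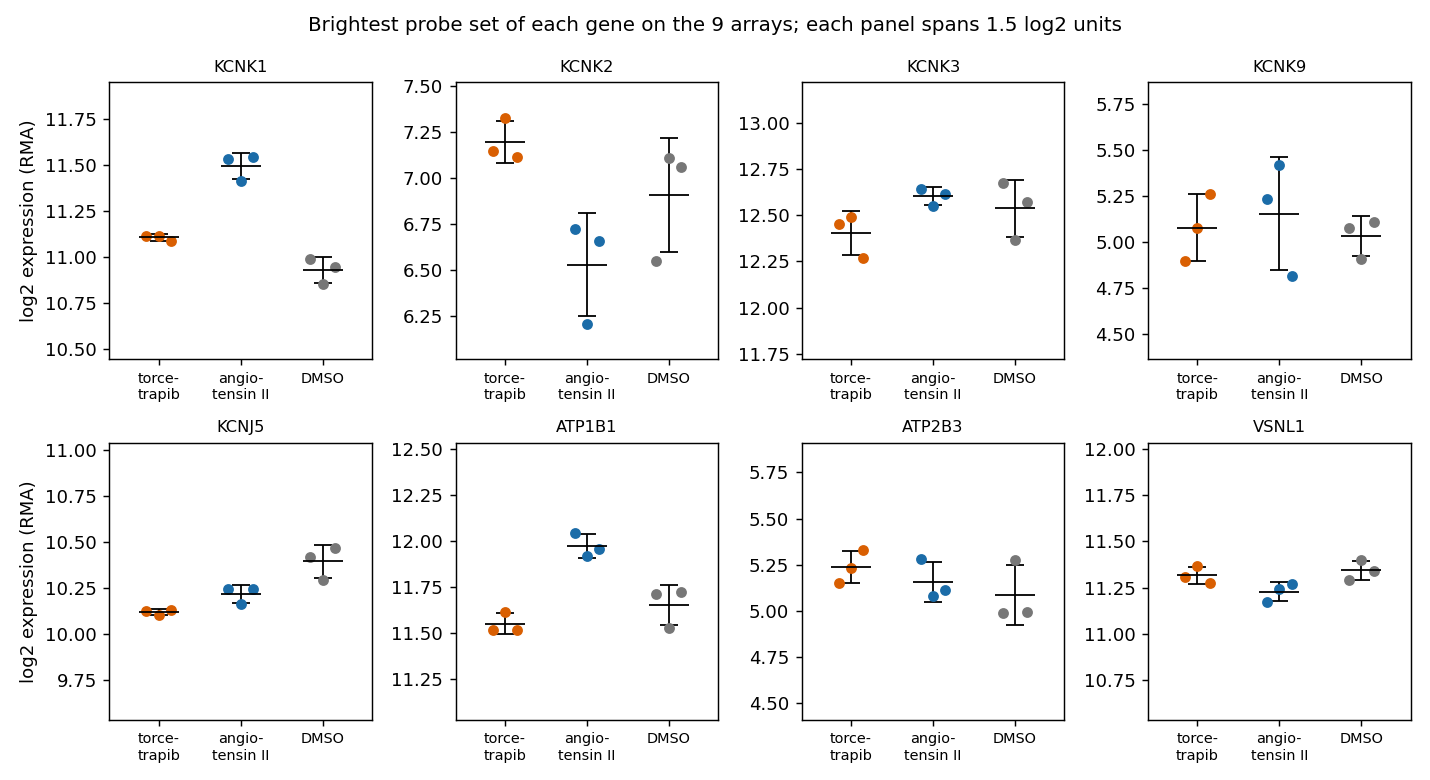
Log2 expression (RMA) of the brightest probe set of each of the 8 genes on the 9 arrays, with torcetrapib left, angiotensin II in the middle and DMSO right; points are arrays, long bars are means and short bars are 1 SD (n = 3 each). KCNK1 and ATP1B1 stand highest in all angiotensin II arrays, KCNJ5 stands lowest in the torcetrapib arrays, and KCNK9 and ATP2B3 sit near 5 with overlapping groups.

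KCNK1 encodes a tandem-pore (K2P) channel that passes a weak inward-rectifying potassium leak. Its log2 level was 11.12, 11.12 and 11.09 with torcetrapib, 11.53, 11.42 and 11.54 with angiotensin II, and 10.99, 10.86 and 10.95 with DMSO. On this brightest probe set the 3 groups did not overlap, with angiotensin II on top and DMSO at the bottom. The change with angiotensin II was 0.56 ± 0.04 (SE; limma adjusted p = 4.21e-07, n = 3 each). With torcetrapib KCNK1 stood 0.18 ± 0.04 above DMSO (95% interval 0.08 to 0.27), which missed the threshold (limma adjusted p = 0.0754), although all 3 torcetrapib arrays were above all 3 DMSO arrays. The direct comparison put torcetrapib 0.39 below angiotensin II on the log2 scale (−0.39 ± 0.04, limma adjusted p = 3.73e-05). A second bright probe set, 204678_s_at, gave 0.56 ± 0.07 for angiotensin II minus DMSO (limma adjusted p = 0.0005 over all probe sets) and −0.42 for torcetrapib minus angiotensin II. On 204678_s_at the torcetrapib and DMSO arrays overlapped, with a difference of 0.14 ± 0.07 (limma adjusted p = 0.443 over all probe sets). The other 2 probe sets of the gene, 1566464_at and 1566465_at, were dim and were not called. With torcetrapib 1566464_at lay below DMSO on all arrays (−0.24), and 1566465_at overlapped DMSO (0.02). Choosing the most variable probe set instead of the brightest took 1 of the dim ones and ended the angiotensin II call (limma adjusted p = 0.435) and that of the direct comparison (0.251).

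ATP1B1 is the regulatory beta subunit of the Na,K-ATPase, needed for the pump to reach the plasma membrane. It read 11.52, 11.62 and 11.52 with torcetrapib, 12.04, 11.92 and 11.95 with angiotensin II, and 11.71, 11.53 and 11.72 with DMSO. Every angiotensin II array was above every other array, while the torcetrapib and DMSO arrays overlapped. ATP1B1 rose by 0.32 ± 0.05 with angiotensin II (limma adjusted p = 0.00086), and torcetrapib differed from DMSO by −0.10 ± 0.05 (95% interval −0.21 to 0.00, limma adjusted p = 0.400). Torcetrapib minus angiotensin II was −0.42 ± 0.05 (limma adjusted p = 6.09e-05). The second probe set, 201243_s_at, moved the same way, with 0.29 ± 0.05 for angiotensin II minus DMSO, and read 10.85 on all 3 torcetrapib arrays, 11.13, 10.95 and 11.09 with angiotensin II, and 10.75, 10.74 and 10.82 with DMSO. There all 3 torcetrapib arrays lay just above the DMSO arrays, so the probe sets differ in the direction of the torcetrapib difference. Torcetrapib minus angiotensin II was smaller on 201243_s_at, at −0.21 ± 0.05 (limma adjusted p = 0.0175 over all probe sets). That call was lost in 9 of 19 alternative settings. Without DMSO replicate 2 the brightest probe set was called lower with torcetrapib (−0.17, limma adjusted p = 0.0458), a setting that called 4.64% of all genes against 1.16% with all arrays. The angiotensin II call of ATP1B1 held under all 21 alternative settings, at an adjusted p between 8.83e-06 and 0.0286.

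The upstream sequence of these genes, with that of KCNJ5, is shown because they are the genes called in a comparison with DMSO. The 250 bases before an annotated start in RefSeq (GRCh38.p14) were searched for 7 of the 8 measured genes, in 9 windows. KCNK9 was not searched. The motifs searched on both strands were TGACGTCA and its short form TGACG, both cyclic AMP response element letters, and AAGGTCA, the letters read by monomeric nuclear receptors. TGACGTCA stood in 1.65% of 35116 windows of this length, TGACG in 21.2% and AAGGTCA in 3.44%. Capitals mark the TGACG matches, which read CGTCA where the motif lies on the minus strand; any TGACGTCA would also be counted as TGACG.
KCNK1, chr1:233613856-233614105, plus strand: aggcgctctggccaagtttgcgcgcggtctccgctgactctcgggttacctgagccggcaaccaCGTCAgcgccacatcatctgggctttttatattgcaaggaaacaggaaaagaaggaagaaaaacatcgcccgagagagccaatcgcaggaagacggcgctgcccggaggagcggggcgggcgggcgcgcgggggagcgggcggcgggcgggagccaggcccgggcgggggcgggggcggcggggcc
ATP1B1, chr1:169106440-169106689, plus strand: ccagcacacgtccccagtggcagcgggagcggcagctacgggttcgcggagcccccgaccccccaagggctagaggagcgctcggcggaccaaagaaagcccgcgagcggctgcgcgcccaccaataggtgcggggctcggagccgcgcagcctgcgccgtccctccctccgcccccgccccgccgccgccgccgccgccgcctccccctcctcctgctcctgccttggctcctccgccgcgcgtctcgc
KCNJ5, chr11:128891106-128891355, plus strand: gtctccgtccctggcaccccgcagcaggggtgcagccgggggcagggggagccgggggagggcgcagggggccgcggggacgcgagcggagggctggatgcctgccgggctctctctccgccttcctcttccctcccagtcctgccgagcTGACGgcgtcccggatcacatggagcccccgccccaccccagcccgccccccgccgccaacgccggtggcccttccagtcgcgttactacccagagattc
The KCNK1 match begins 186 bases before the start on the minus strand, and the KCNJ5 match begins 100 bases before the start on the plus strand. The other windows of the set held none of the 3 motifs. These matches are letters only, at a frequency that 21.2% of all windows share.

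KCNJ5 encodes an inward-rectifier channel subunit gated by G proteins, and its mutant forms in adenomas let sodium through. It read 10.12, 10.10 and 10.13 with torcetrapib, 10.25, 10.16 and 10.25 with angiotensin II, and 10.42, 10.30 and 10.47 with DMSO. Torcetrapib arrays were lowest, DMSO arrays highest, and no groups overlapped. With torcetrapib it fell by 0.27 on the log2 scale (−0.27 ± 0.05, limma adjusted p = 0.0150). With angiotensin II the change was −0.18 ± 0.05, which missed the threshold (limma adjusted p = 0.0543), and the 2 treatments differed by −0.10 ± 0.05 (95% interval −0.21 to 0.01, limma adjusted p = 0.248). The angiotensin II change was called lower in 7 of 22 alternative settings, the 0.10 threshold among them, and the torcetrapib call was kept in 10. The torcetrapib call rested on 5 of the 6 arrays compared: it was lost without DMSO replicate 1 (limma adjusted p = 0.0801), without DMSO replicate 3 (0.0838), or without torcetrapib replicate 1, 2 or 3 (0.0805, 0.0848 and 0.0709), and over all alternative settings its adjusted p lay between 0.000883 and 0.997.

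The 6 KCNJ5 probe sets did not move together with torcetrapib. Against DMSO they gave −0.27 (238780_s_at, the brightest), −0.26 (237186_at), −0.05 (208404_x_at and 211304_x_at), 0.19 (208397_x_at) and 0.46 ± 0.16 (211817_s_at, limma adjusted p = 0.202 over all probe sets). With angiotensin II all 6 were negative, between −0.40 and −0.18, and none was called. Probe set 211817_s_at read 8.77, 8.93 and 9.11 with torcetrapib, 8.08, 8.03 and 8.11 with angiotensin II, and 8.09, 8.91 and 8.44 with DMSO. Torcetrapib and angiotensin II separated fully on it (0.86 ± 0.16, limma adjusted p = 0.0047 over all probe sets), the opposite direction to the brightest probe set, and the DMSO arrays spread over both. With the 5′ minus 3′ index, an RNA quality measure, in the model, this difference was 0.16 and was not called (limma adjusted p = 0.848).

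**Figure D2:**
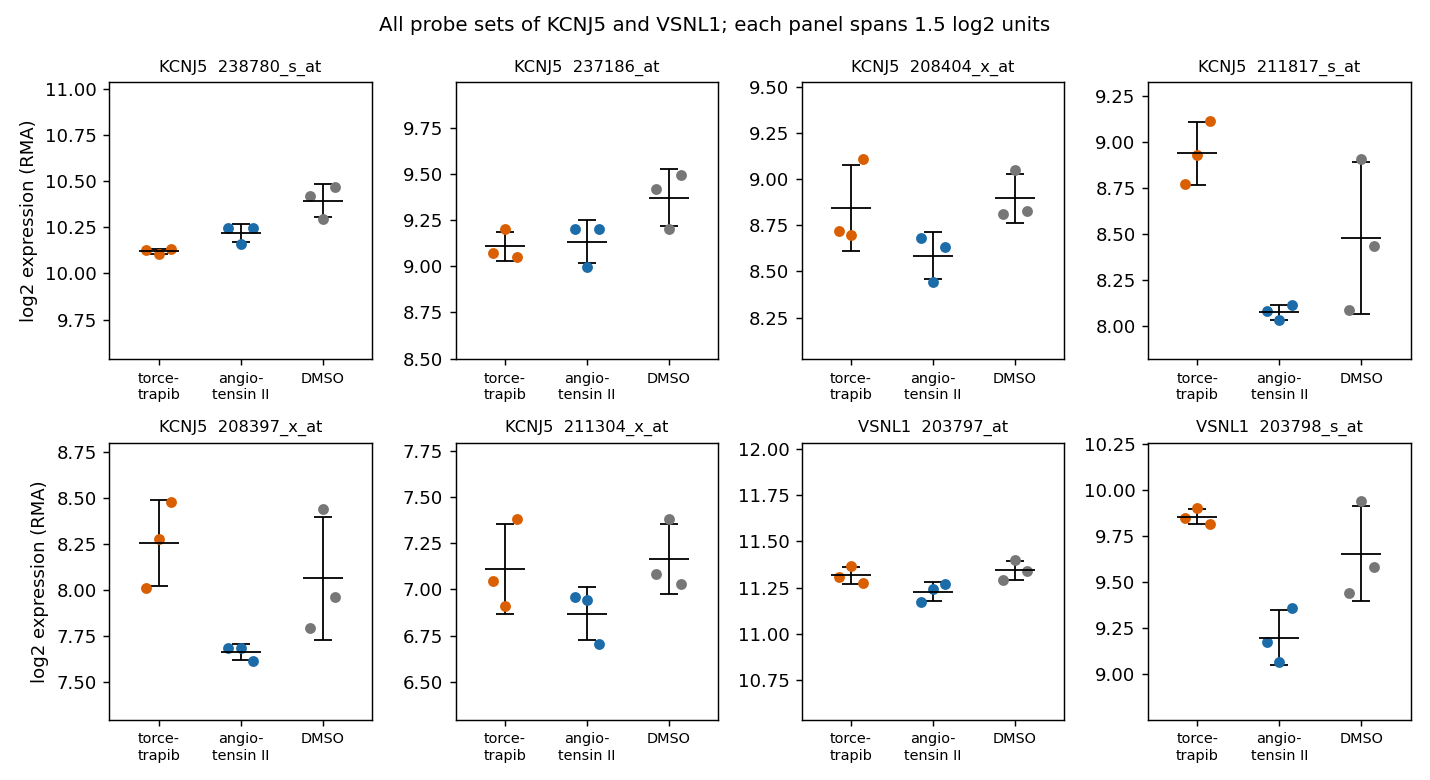
Log2 expression (RMA) of the 6 KCNJ5 and both VSNL1 probe sets on the 9 arrays, torcetrapib left, angiotensin II in the middle and DMSO right; points are arrays, bars are the mean and 1 SD (n = 3 each). Probe sets 211817_s_at and 203798_s_at are high with torcetrapib and low with angiotensin II, while 238780_s_at is lowest with torcetrapib.

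VSNL1 encodes visinin-like protein, a myristoylated neuronal calcium sensor enriched in glomerulosa cells. Its brightest probe set read 11.31, 11.37 and 11.28 with torcetrapib, 11.17, 11.24 and 11.27 with angiotensin II, and 11.29, 11.40 and 11.34 with DMSO. The angiotensin II arrays were the lowest, by a small margin. The difference was −0.12 ± 0.04 with angiotensin II (limma adjusted p = 0.143) and −0.03 ± 0.04 with torcetrapib (limma adjusted p = 0.851). Its second probe set, 203798_s_at, moved more: it read 9.85, 9.90 and 9.82 with torcetrapib, 9.17, 9.07 and 9.36 with angiotensin II, and 9.44, 9.94 and 9.58 with DMSO. It fell by 0.46 with angiotensin II (−0.46 ± 0.11, limma adjusted p = 0.0398 over all probe sets), and torcetrapib stood 0.66 ± 0.11 above angiotensin II (limma adjusted p = 0.0028 over all probe sets). The first of these calls was lost under 10 of 19 alternative settings, 7 of them the removal of 1 array (replicate 2 or 3 of DMSO, replicate 1 or 2 of angiotensin II, or any torcetrapib array; adjusted p up to 0.152). In all, 5 of the 24 probe sets were called with angiotensin II against DMSO, where 3.63% of 41091 probe sets were called, 1 with torcetrapib against DMSO (1.11%), and 8 with torcetrapib against angiotensin II (11.6%).

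KCNK2 encodes a stretch- and lipid-sensitive K2P channel that angiotensin II inhibits in bovine adrenal cells. It read 7.15, 7.33 and 7.12 with torcetrapib, 6.72, 6.21 and 6.66 with angiotensin II, and 6.55, 7.11 and 7.06 with DMSO. Torcetrapib arrays were all above the angiotensin II arrays, and 1 DMSO array fell among the angiotensin II arrays. The 2 treatments differed by 0.67 ± 0.15, or 1.59-fold (limma adjusted p = 0.00909), and this call was lost without torcetrapib replicate 2 (0.0515). Against DMSO neither treatment passed, with −0.38 ± 0.15 for angiotensin II (limma adjusted p = 0.200) and 0.29 ± 0.15 for torcetrapib (limma adjusted p = 0.432). Leaving out DMSO replicate 1 brought the angiotensin II change to −0.55 and past the threshold (limma adjusted p = 0.0302).

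KCNK3 and KCNK9 encode the acid-sensitive K2P leak channels of glomerulosa cells. KCNK3 read 12.45, 12.49 and 12.27 with torcetrapib, 12.64, 12.55 and 12.62 with angiotensin II, and 12.67, 12.37 and 12.57 with DMSO. All torcetrapib arrays lay below all angiotensin II arrays on each of its 3 probe sets, but the brightest missed the threshold (−0.20 ± 0.07, limma adjusted p = 0.0664), and both treatments overlapped DMSO. Without DMSO replicate 2 the torcetrapib difference from DMSO was −0.22 and was called (limma adjusted p = 0.0339). KCNK9, at 5.08 ± 0.18 with torcetrapib, 5.15 ± 0.31 with angiotensin II and 5.03 ± 0.11 with DMSO (SD, n = 3 each), was close to the lower quartile of all genes. Its differences from DMSO were 0.05 ± 0.14 with torcetrapib and 0.12 ± 0.14 with angiotensin II.

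ATP2B3 encodes a plasma membrane calcium pump. It was also dim, at 5.24 ± 0.09 with torcetrapib, 5.16 ± 0.11 with angiotensin II and 5.09 ± 0.16 with DMSO (SD, n = 3 each). The difference from DMSO was 0.15 ± 0.10 with torcetrapib (95% interval −0.07 to 0.38) and 0.07 ± 0.10 with angiotensin II (95% interval −0.15 to 0.30). Probe sets 215911_x_at, 216312_at and 242036_x_at were dimmer still, and none was called. They gave −0.11, 0.02 and −0.04 with torcetrapib, and 0.08, −0.11 and −0.11 with angiotensin II. At levels this low the intervals describe the signal of the brightest probe set, which may not follow the transcript. They do not show whether ATP2B3 changed.

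**Figure D3:**
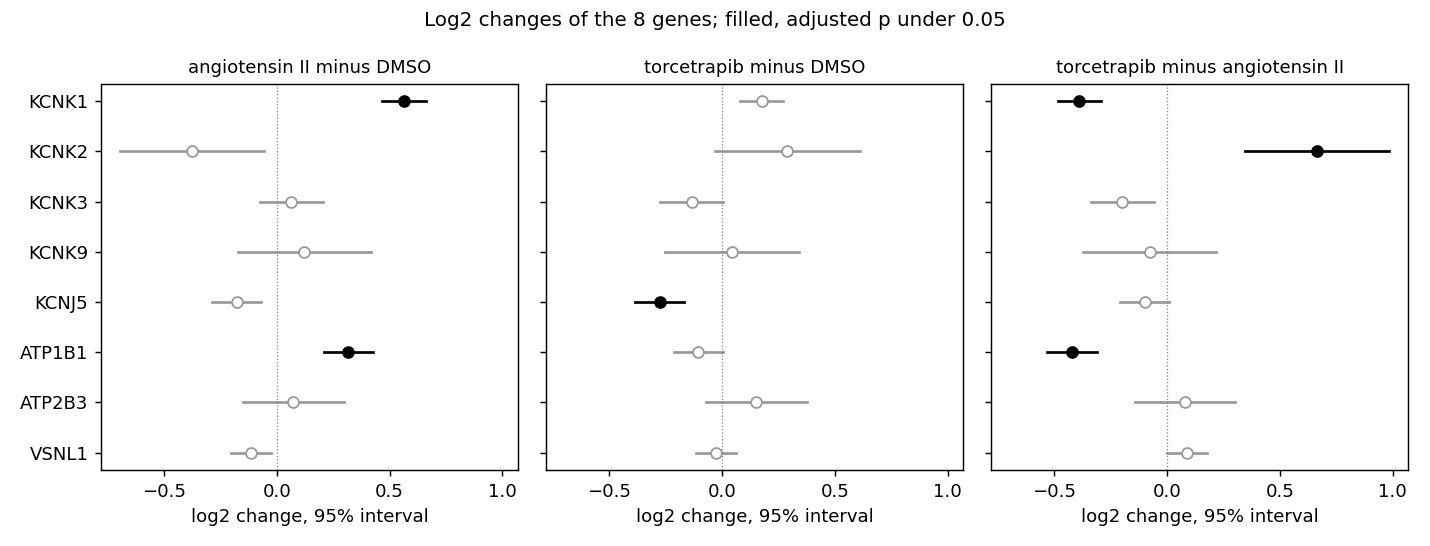
Log2 change of each of the 8 genes with its 95% interval for angiotensin II minus DMSO, torcetrapib minus DMSO and torcetrapib minus angiotensin II (n = 3 arrays each); filled points have a limma adjusted p below 0.05. KCNK1 and ATP1B1 are filled above 0 with angiotensin II, KCNJ5 is filled below 0 with torcetrapib, and KCNK2 is filled above 0 in the direct comparison.

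The arrays of the 3 groups also differed in an RNA quality measure. The 5′ minus 3′ index, the mean log2 difference between 5′ and 3′ control probe sets of ACTB and GAPDH, was −0.24 ± 0.03 with torcetrapib, −0.62 ± 0.02 with angiotensin II and −0.50 ± 0.22 with DMSO (SD, n = 3 each). The DMSO arrays read −0.72, −0.28 and −0.50, so DMSO replicate 2 stood beside the torcetrapib arrays. KCNJ5 211817_s_at and VSNL1 203798_s_at were also high on DMSO replicate 2. Within groups the index varied mainly among the 3 DMSO arrays, so its slope in the model rests mostly on them. With the index in the model, KCNK1 (0.53, limma adjusted p = 8.3e-07) and ATP1B1 (0.27, limma adjusted p = 0.00213) were called higher with angiotensin II. KCNJ5 was called lower with angiotensin II (−0.21, limma adjusted p = 0.0266). The torcetrapib change of KCNJ5 was then −0.20 and not called (limma adjusted p = 0.484), and all 6 of its probe sets were negative, with 211817_s_at at −0.03. For KCNK1 the torcetrapib difference from DMSO was then 0.25 and not called (204679_at, limma adjusted p = 0.126 over all probe sets). VSNL1 203798_s_at kept its call for angiotensin II against DMSO (−0.32, limma adjusted p = 0.0245 over all probe sets), but its difference between torcetrapib and angiotensin II was 0.22 and no longer called (limma adjusted p = 0.677 over all probe sets). The same held for KCNJ5 208397_x_at, at 0.03 (limma adjusted p = 0.990), against 0.59 without the index.

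**Figure D4:**
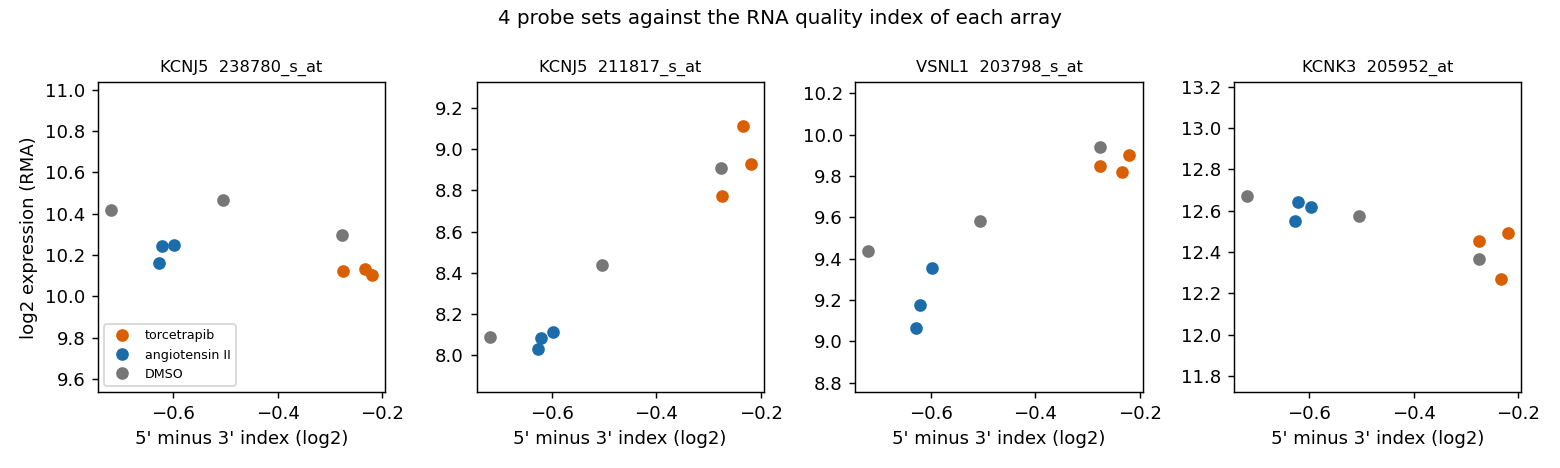
Log2 expression (RMA) of 4 probe sets on the 9 arrays (vertical axis) against the 5′ minus 3′ index of each array (log2, horizontal axis), with torcetrapib, angiotensin II and DMSO in separate colours. The torcetrapib arrays lie at −0.28 to −0.22 with DMSO replicate 2 beside them, and KCNJ5 211817_s_at and VSNL1 203798_s_at are high on those 4 arrays. Both were picked as the probe set of their gene that differs most between torcetrapib and angiotensin II. The other panels show the brightest probe sets of KCNJ5 and KCNK3.

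The index did not overlap between torcetrapib and angiotensin II, so between those groups it cannot be told apart from treatment. Torcetrapib and DMSO did not overlap either, though narrowly (lowest torcetrapib array −0.2751, DMSO replicate 2 −0.2758). Index and treatment are therefore not fully separated there either. With the index in the comparison of torcetrapib with angiotensin II none of the 8 genes was called by limma, and 2 had an unadjusted p below 0.05. Over all genes the share called was 1.42% with the index, against 11.3% without it. KCNK1 was then at −0.28 (limma adjusted p = 0.0774), ATP1B1 at −0.28 (0.126) and KCNK2 at 0.18 (0.906).

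Some genes followed the called genes closely over the 9 arrays, which share the treatments and the processing. Among 9887 genes above the median gene, those with the highest Pearson correlation to KCNK1 were TENT5C (0.994), CXCR4 (0.994) and TENT5A (0.992). For ATP1B1 they were MEPCE (0.993), TENT4B (0.984) and CRTC2 (0.984), and for KCNJ5 they were ANKLE2 (0.985), SLC39A10 (0.980) and CCDC69 (0.973). TENT5A changed most among them, by 0.70 with torcetrapib and 2.87 with angiotensin II on the log2 scale.

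Few genes of the related transport and sensor families, or of a list of other genes mutated in aldosterone-producing adenomas, were called. Of 140 measured genes of 156 in these 8 lists, 5 were called with angiotensin II against DMSO (4 higher, 1 lower, 3.57%). With torcetrapib against DMSO 1 was called (lower, 0.714%), and with torcetrapib against angiotensin II 10 were (2 higher, 8 lower, 7.14%). Those shares were below the 6.12%, 1.16% and 11.3% of all genes. The 1 gene called with torcetrapib against DMSO, GNAQ, came from the adenoma list, so no gene of the families was called there. GNA11 and SLC30A1, among the 10, also came from that list. No other K2P channel (10 measured), sodium or proton-potassium pump subunit (13) or neuronal calcium sensor (12) was called in any comparison, with 1, 1 and 0 of them at an unadjusted p below 0.05 with angiotensin II against DMSO, none with torcetrapib against DMSO, and 1, 1 and 2, all lower, with torcetrapib against angiotensin II. With the index in the model none of the 10 calls between torcetrapib and angiotensin II was kept, and 8 of the 140 genes had an unadjusted p below 0.05.

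Among 54 voltage-gated and calcium-activated potassium channel genes, angiotensin II raised KCNG3 and KCNH8. KCNG3, a silent subunit that modifies other channels, read 5.94, 5.96 and 5.62 with torcetrapib, 6.39, 6.23 and 6.70 with angiotensin II, and 5.65, 5.70 and 5.94 with DMSO. Only the angiotensin II arrays stood apart, by 0.68 ± 0.13 over DMSO (limma adjusted p = 0.00376), although a second, dim probe set gave −0.13. KCNH8, a voltage-gated channel, changed by 0.34 ± 0.09 (limma adjusted p = 0.0262), a call lost when replicate 1 or 3 of DMSO, or replicate 1 or 3 of angiotensin II, was left out (adjusted p up to 0.117). Against angiotensin II, torcetrapib was lower for KCNG3 (−0.60), KCNE5 (−0.42) and KCNH8 (−0.33). KCNE5 was dim, at 3.99 with torcetrapib and 4.40 with angiotensin II, both below the lower quartile of genes, and its arrays overlapped. Its call was lost in 7 of 21 alternative settings, among them without replicate 1 or 2 of angiotensin II or 2 or 3 of torcetrapib (adjusted p up to 0.126). The KCNH8 call was lost in 6 of 22, among them without replicate 1 or 3 of either treatment (adjusted p up to 0.0985). None of the 12 other inward rectifiers was called against DMSO, and torcetrapib stood above angiotensin II for KCNJ4 (0.49, limma adjusted p = 0.0331) and KCNJ8 (0.27, limma adjusted p = 0.0226). KCNJ4 read 8.08, 7.99 and 7.98 with torcetrapib and 7.62, 7.08 and 7.86 with angiotensin II. Without the low angiotensin II replicate 2 the difference was 0.27 (limma adjusted p = 0.0789), and the call was lost in 10 of 21 settings, among them the removal of replicate 1 of angiotensin II or of any torcetrapib array (adjusted p up to 0.121). The KCNJ8 call was lost in 9 of 22, among them without replicate 1 or 2 of either treatment (adjusted p up to 0.111).

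Of 12 calcium pump and exchanger genes, angiotensin II raised ATP2A2, the pump that refills the endoplasmic reticulum with calcium, by 0.13 ± 0.04 (limma adjusted p = 0.0417). Of 20 chloride channel genes it raised LRRC8A (0.16, limma adjusted p = 0.0216), the essential subunit of the volume-regulated anion channel, and lowered its partner subunit LRRC8D (−0.24, limma adjusted p = 0.0067). LRRC8D read 9.67, 9.74 and 9.66 with torcetrapib, 9.54, 9.60 and 9.62 with angiotensin II, and 9.79, 9.88 and 9.82 with DMSO, so the 3 groups did not overlap. The LRRC8D call held under all 22 alternative settings, at an adjusted p between 0.000185 and 0.0462. The ATP2A2 call was lost in 14 of 22, among them the removal of any array but torcetrapib replicate 3 (adjusted p up to 0.157), and the LRRC8A call in 10 of 22, among them the removal of replicate 1 or 2 of DMSO, or of replicate 1 or 2 of angiotensin II (adjusted p up to 0.0856). Against angiotensin II, torcetrapib was lower for ATP2A2 (−0.14), for CLCN7, a lysosomal chloride-proton exchanger (−0.30, limma adjusted p = 0.0028), and for ANO6 (−0.15, limma adjusted p = 0.0387). A dimmer ATP2A2 probe set was called in the opposite direction, higher with torcetrapib than with angiotensin II (0.52, limma adjusted p = 0.0065 over all probe sets) and than with DMSO (0.52, limma adjusted p = 0.0327). The ATP2A2 call between the treatments was lost in 7 of 22 settings, among them without replicate 1 of angiotensin II or replicate 1 or 3 of torcetrapib (adjusted p up to 0.108), and changed sign in 2. The ANO6 call was lost in 10, among them the removal of any array of either treatment (adjusted p up to 0.125), and changed sign in 2.

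Of 7 other genes found mutated in aldosterone-producing adenomas, torcetrapib lowered GNAQ, the G protein that couples the angiotensin receptor to phospholipase C. It read 10.70, 10.71 and 10.64 with torcetrapib, 10.79, 10.88 and 10.81 with angiotensin II, and 10.94, 10.80 and 10.94 with DMSO, a difference from DMSO of −0.21 ± 0.05 (limma adjusted p = 0.0446). Other GNAQ probe sets gave differences of both signs, and the call was lost with the index in the model (limma adjusted p = 0.883) and without any array but DMSO replicate 2 and angiotensin II replicate 2 (adjusted p up to 0.215). Against angiotensin II, torcetrapib was lower for GNA11 (−0.21) and the zinc exporter SLC30A1 (−0.19). The GNA11 call was lost in 11 of 22 settings, among them the removal of replicate 1 or 3 of angiotensin II or of any torcetrapib array (adjusted p up to 0.104), and its value lay between −0.38 and −0.03. The GNA11 probe sets were all lower with torcetrapib than with angiotensin II, and 3 of 6 were called. The SLC30A1 call was lost in 3 of 22 settings and its sign changed in 1.

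**Figure D5:**
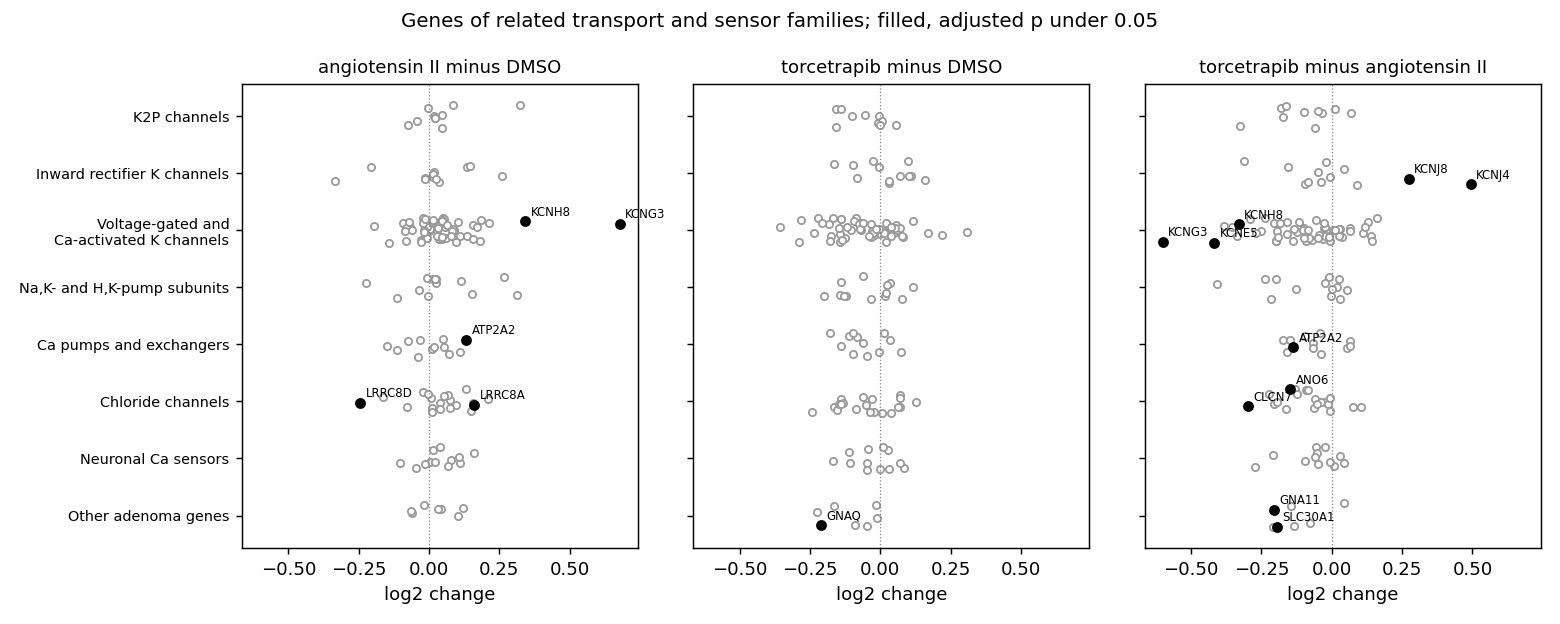
Log2 change of 140 genes of related transport and sensor families and of other adenoma genes, 1 row of points per list. Panels show angiotensin II minus DMSO, torcetrapib minus DMSO and torcetrapib minus angiotensin II. Filled points have a limma adjusted p below 0.05. Most points lie near 0, with KCNG3 at 0.68 the largest change with angiotensin II.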

How the data were processed

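Log2 expression values per probe set were deposited by the authors, and the submitters' processing notes name RMA as the method. Which software made them is not given in the sources used here. No further normalisation was applied. Of 54675 probe sets, 41091 with 1 gene symbol were kept; 1801 with several, 11721 with none and 62 controls were not tested. For each of 19775 genes the probe set brightest on average over 9 arrays was used. One model with 3 group means, 6 residual degrees of freedom and an intensity trend was fitted in limma 3.58.1 (R 4.3.3), with two-sided p-values. The Benjamini-Hochberg adjustment ran over all genes, or over all probe sets where stated. The same scripts were tested on simulated data. With 3 arrays a group, the array number limits the precision.

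The genes and lists were chosen with earlier results of these data known. Named were all members with their probe sets, up to 3 called genes with the largest change per related list and comparison, and the 3 genes most correlated with each member called against DMSO. Values repeated often: 24.5% of probe sets had the same value on 2 or more arrays of a group.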

Additional observations from a re-analysis of the deposited data

How the results depend on the processing

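No paired analysis was possible because the labels give no replicate numbers shared between groups. The alternatives included no intensity trend, centring, a repeated quantile normalisation, other choices of probe set, array weights, only the groups compared, the 5′ minus 3′ index in the model, other thresholds and leaving out each array. Some settings leave a log2 change as it is, so its direction there was fixed in advance. These are no intensity trend, a robust variance estimate, dim genes left out, only the groups compared and other thresholds. Leaving out an array of the group not compared is another. The counts of kept values below include them. Of 525 recomputed log2 changes of the 8 genes, 454 kept their direction and side of the threshold, 16 fell short of it, 27 came past it and 28 changed sign. For the probe sets called, 217 of 266 were kept and 49 fell short, and for the named related genes 231 of 350 were kept, 113 fell short and 6 changed sign. The cause was not tested for any of them, except that the 0.01 and 0.10 thresholds move counts by construction.

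Angiotensin II minus DMSO called 2 of the 8 genes, 5 related genes and 5 of the probe sets. The 8 genes gave 1 call without _x_at and _s_at probe sets, where ATP1B1 has no value, and 4 with array weights. The related genes gave 3 without the trend, 3 after centring, 2 with the most variable probe set, 11 with weights, 2 with only the groups compared and 2 at 0.01. The probe sets gave 3 without the trend. Of all genes, 6.12% were called, against 4.25% without the trend, 4.69% after centring, 5.3% without _x_at and _s_at, 4.1% with the most variable probe set, 13.7% with weights, 4.34% with only the groups compared and 3.88% at 0.01. Leaving out 1 array gave 2 to 3, 2 to 5 and 4 to 7 calls.

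Torcetrapib minus DMSO called 1, 1 and 1. No gene of the 8 was called without the trend, after centring, with the mean of probe sets, without _x_at and _s_at probe sets, with the most variable probe set, with the index or at 0.01, and 2 were called with weights and 2 at 0.10. Related genes gave 0 without the trend, after centring, with the mean, without _x_at and _s_at, with only the groups compared, with the index and at 0.01, then 3 after quantile normalisation, 5 with weights and 2 at 0.10. Probe sets gave 0 without the trend, after centring, with only the groups compared, with the index and at 0.01, 4 with weights and 2 at 0.10. Leaving out 1 array gave 0 to 3, 0 to 5 and 0 to 7. The highest counts of genes and of probe sets, 3 and 7, came without DMSO replicate 2, where 4.64% of all genes were called. Of all genes, 1.16% were called, against 0.253% without the trend, 0.607% after centring, 2.57% after quantile normalisation, 0.546% with the mean, 0.795% without _x_at and _s_at, 1.15% with the most variable, 6.43% with weights, 0.733% with only the groups compared, 0.384% with the index, 0.394% at 0.01 and 2.54% at 0.10. Where limma called 0, between 0 and 4 of the 8 genes, 7 and 18 related genes and 2 and 7 probe sets had an unadjusted p below 0.05.

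Torcetrapib minus angiotensin II called 3, 10 and 8. The 8 genes gave 5 with the mean of probe sets, 5 with the most variable, 6 with weights and 0 with the index. Related genes gave 4 without the trend, 6 after centring, 18 after quantile normalisation, 43 with weights, 0 with the index, 3 at 0.01 and 19 at 0.10. Probe sets gave 13 with weights, 0 with the index and 5 at 0.01. Of all genes, 11.3% were called, against 7.54% without the trend, 8.39% after centring, 15.5% after quantile normalisation, 11.7% with the mean, 15.8% with the most variable, 31.4% with weights, 1.42% with the index, 5.58% at 0.01 and 16.2% at 0.10. With the index, 2, 8 and 5 had an unadjusted p below 0.05. Leaving out 1 array gave 2 to 4, 3 to 16 and 5 to 10.

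Signs changed as follows, on the log2 scale. For angiotensin II minus DMSO, ATP2B3 was −0.0147 with the mean of probe sets and −0.108 without _x_at and _s_at, and KCNK3 was −0.0138 with the index. Leaving out 1 array gave −0.0209 to 0.13 for KCNK3 and −0.00828 to 0.29 for KCNK9. For torcetrapib minus DMSO, the mean of probe sets gave KCNJ5 0.00112 and VSNL1 0.0871, and the most variable probe set gave KCNJ5 0.460, ATP2B3 −0.109, VSNL1 0.201 and GNAQ 0.238. Weights gave KCNK9 −0.0331, and the index gave KCNK2 −0.0477, KCNK3 0.0399 and ATP2B3 −0.0174. Leaving out 1 array gave −0.0453 to 0.136 for KCNK9 and −0.0515 to 0.000504 for VSNL1. For torcetrapib minus angiotensin II, the mean gave KCNJ5 0.305 (limma adjusted p = 0.0286), ATP2A2 0.108 and ANO6 0.0395. The most variable probe set gave KCNJ5 0.861 (limma adjusted p = 0.00396), ATP2B3 −0.191, ATP2A2 0.521, ANO6 0.226 and SLC30A1 0.00476. Weights gave ATP2B3 −0.0470, and the index gave KCNK3 0.0536, KCNK9 0.0708, KCNJ5 0.00336, ATP2B3 −0.167 and VSNL1 −0.00398. Leaving out 1 array gave KCNK9 −0.246 to 0.0536.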
